A study of Mus musculus with 8 samples.

Results

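The 10 genes described here encode dual-specificity phosphatases, Dusp1, Dusp2, Dusp3, Dusp4, Dusp5, Dusp6, Dusp7, Dusp8, Dusp10 and Dusp16. They were taken by name, not by their values, as the entries of the deposited expression table whose Ensembl identifiers GENCODE assigns to these symbols, and all 10 were found among the 55359 genes listed. All 10 passed the minimum mean of 10 normalized counts and were among the 16309 genes tested. Total RNA was sequenced from bone marrow-derived Mϕ (BMDMs) of C57BL/6 wildtype mice, male and female, which had been differentiated with 20 ng/mL M-CSF and 20 ng/mL GM-CSF. Ctrl were naïve, unstimulated BMDMs (n = 2). LPS were BMDMs exposed for 6 h to 100 ng/mL LPS, a bacterial Toll-like receptor agonist, together with 100 U/mL IFNγ (n = 2). Eff were efferocytic BMDMs, which had spent 16 h with 5 apoptotic NIH-3T3 fibroblasts per Mϕ while 10 nM dimerizer was present, and were then washed (n = 2). LPSEff were efferocytic BMDMs that received the same LPS/IFNγ stimulation after the wash (n = 2). The fibroblasts were a mouse line, 1 clone, that carries a dimerizable caspase-8 domain, so their death was started by the dimerizer, and Mϕ were recovered with CD45 beads. The labels do not say whether the samples of a group came from separate animals or cultures, so p-values measure the spread between these samples, which may be technical.

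Dual-specificity phosphatases remove phosphate from both threonine and tyrosine. Most of the 10 are MAP kinase phosphatases, which dock onto the MAP kinases ERK, p38 or JNK, switch them off, and are themselves often made in response to MAP kinase signaling, which makes them a negative feedback on it. In Mϕ, Dusp1 is best known as a brake on p38 and JNK after Toll-like receptor signaling, and thereby on cytokine production. Dusp1, Dusp2, Dusp4 and Dusp5 encode inducible nuclear enzymes, Dusp6 and Dusp7 cytoplasmic enzymes selective for ERK, and Dusp8, Dusp10 and Dusp16 enzymes that act on p38 or JNK. Dusp3 encodes a small atypical member of the family, also called VHR.

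The stretches before the transcription start of 5 of the genes are shown to place the motif matches of Dusp genes of each kind, 3 that rose with LPS/IFNγ (Dusp1, Dusp5 and Dusp16), 1 that did not pass the test (Dusp8) and 1 that fell (Dusp3). RefSeq promoter sequences, from a table on GRCm38.p6, matched 9 of the 10 genes, all but Dusp4, and each was placed on GRCm39 by an exact match. For each, the 250 bases before the RefSeq start were searched on both strands for 10 motifs, and bases that GENCODE assigns to an exon of the gene itself are not shown. The stretches run 5′ to 3′ on the gene's strand, in lower case, with motif matches in capitals. Capitals mark CRE, CRE core and E-box matches in Dusp1, a pair of adjoining CArG boxes and a CRE core in Dusp5, an EGR site in Dusp16 and a pair of CREs in Dusp8, whereas the window of Dusp3 held no match. The windows of Dusp6, Dusp7 and Dusp10, which are not shown, held no match either.
Dusp1: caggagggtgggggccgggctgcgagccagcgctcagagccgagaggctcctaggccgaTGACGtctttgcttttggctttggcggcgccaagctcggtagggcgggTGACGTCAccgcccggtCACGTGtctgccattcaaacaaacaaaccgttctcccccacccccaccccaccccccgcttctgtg
Dusp5: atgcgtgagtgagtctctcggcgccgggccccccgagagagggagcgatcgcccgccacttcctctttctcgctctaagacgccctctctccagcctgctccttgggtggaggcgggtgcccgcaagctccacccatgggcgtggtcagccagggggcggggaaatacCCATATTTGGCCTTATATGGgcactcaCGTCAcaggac
Dusp16: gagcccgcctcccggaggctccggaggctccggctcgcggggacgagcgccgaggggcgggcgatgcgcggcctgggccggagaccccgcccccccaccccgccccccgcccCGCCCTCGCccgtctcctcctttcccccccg
Dusp8: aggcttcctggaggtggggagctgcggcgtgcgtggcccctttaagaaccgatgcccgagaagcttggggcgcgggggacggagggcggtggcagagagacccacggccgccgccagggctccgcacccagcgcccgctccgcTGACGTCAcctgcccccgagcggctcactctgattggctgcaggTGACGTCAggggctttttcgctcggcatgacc
Dusp3: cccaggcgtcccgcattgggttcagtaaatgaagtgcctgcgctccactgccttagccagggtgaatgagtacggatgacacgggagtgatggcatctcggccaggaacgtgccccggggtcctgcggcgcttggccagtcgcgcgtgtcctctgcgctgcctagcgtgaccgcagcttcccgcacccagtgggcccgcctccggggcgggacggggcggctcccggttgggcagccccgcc
On GRCm39, the stretch of Dusp1 is chr17:26727507-26727696 on the minus strand, in an intron of the longer Dusp1 transcripts and overlapping an exon of the antisense long noncoding RNA Gm56886. That of Dusp5 is chr19:53517326-53517531 on the plus strand, upstream of the annotated gene and overlapping an exon of the antisense long noncoding RNA Gm50394. That of Dusp16 is chr6:134769699-134769841 on the minus strand, in an intron of the longer Dusp16 transcripts. Dusp8 is shown from chr7:141649053-141649271 and Dusp3 from chr11:101875626-101875867, both on the minus strand and in introns of longer transcripts of the same gene, that of Dusp8 also overlapping an exon of the antisense long noncoding RNA Gm32786.

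The full cyclic AMP response element (CRE, TGACGTCA) was found in Dusp1, from base 143 to base 136 before the start, and at 2 places in Dusp8, from base 107 to 100 and from base 63 to 56. The full CRE occurs in 1.55% of the 32851 RefSeq promoters searched the same way. CRE cores (TGACG), which overlap the full element where one is present, were found in 4 of the 9 genes, Dusp1, Dusp5, Dusp8 and Dusp16, against 17.8% of all promoters. The serum response factor motif, the CArG box, was found only in Dusp5, at bases 82 to 73 and 72 to 63, against 1.47% of all promoters. EGR sites (GCGNGGGCG) were present in Dusp2 and Dusp16, against 4.7%, and E-boxes (CACGTG) in Dusp1 and Dusp2, against 6.02%. In Dusp2 both matches lie in bases that GENCODE assigns to the first exon, so its letters are not shown, and the CRE core of Dusp16, at bases 70 to 66, likewise lies outside the stretch shown. The kappaB consensus, the AP-1 site (TGANTCA), the interferon motifs GAS (TTCNNNGAA) and ISRE core (GAAANNGAA) and the TATA box (TATAAA) were found in none of the 9 windows, against 3.9%, 6.75%, 7.02%, 7.13% and 12.4% of all promoters. These are matches of letters only. Windows of the 9 genes held 56.4% to 77.2% G and C, against a median of 52.4% (quartiles 45.2% and 61.2%) over all promoters. All 250 bases of the windows of Dusp7 (77.2% G and C) and Dusp10 lie in exons that GENCODE assigns to the gene itself.

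Depth, recovered as whole reads from the deposited values, ran from 3481288 to 12020918 reads assigned to genes per sample, with the lowest and the highest both in Ctrl. A count of 3 reads was worth 1.73 to 5.71 normalized counts, below every value of the 10 genes, of which the lowest was 9.64 (Dusp8 in Eff). The normalized totals were 6587737 to 6951788 without and 8470249 to 9489294 with LPS/IFNγ. The 10 Mϕ markers, Ptprc and Csf1r among them, were detected in all groups and summed to 108856 to 164148 normalized counts per sample. Lyz2 was the largest part of each sum (54327 to 103975). Cd14 had 1809 and 2056 in Ctrl and 23118 and 12722 in LPS, and 3010 and 2587 in Eff and 17098 and 21198 in LPSEff.

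To ask how inflammatory stimulation changes these genes in naïve Mϕ, LPS was compared with Ctrl, and to ask the same in efferocytic Mϕ, LPSEff was compared with Eff. Both comparisons share no sample, but for each gene they share 1 estimate of the spread, taken from all 8 samples. In naïve Mϕ, Dusp1, Dusp2, Dusp4, Dusp5 and Dusp16 rose and Dusp3 and Dusp7 fell, so that 7 of 10 genes changed, against a background of 24.0% of all tested genes (12.4% higher, 11.6% lower). In efferocytic Mϕ, Dusp2, Dusp4, Dusp5 and Dusp16 rose and Dusp3 and Dusp7 fell, 6 of 10 against 19.7% (10.7% higher, 8.95% lower). The median log2 fold change over the 10 genes was 1.43 in naïve and 1.04 in efferocytic Mϕ, beside -0.01 and 0.01 over all tested genes. Stimulated and unstimulated samples did not overlap for 9 of the 10 genes in naïve Mϕ, all but Dusp6, and for all 10 in efferocytic Mϕ, against 59.3% and 59.9% of all tested genes. Calls are at an adjusted p under 0.05 in limma with Benjamini-Hochberg adjustment over all 16309 genes, and fold changes are on the log2(normalized count + 1) scale. In bulk RNA, fewer cells of a type and less RNA per cell cannot be told apart.

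**Figure D1:**
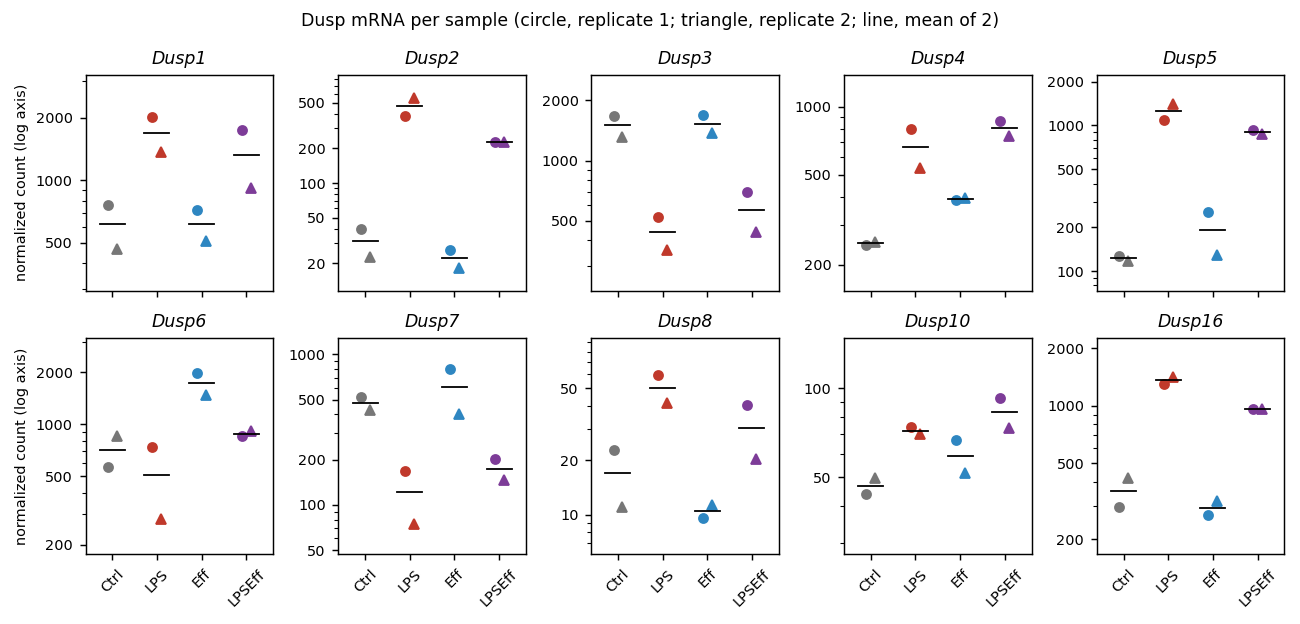
Normalized count of each of the 10 Dusp genes in each of the 8 samples, on a log axis, with circles for replicate 1, triangles for replicate 2 and a line at the mean of both. The samples with LPS/IFNγ lie above those without for Dusp1, Dusp2, Dusp4, Dusp5, Dusp10 (called in neither comparison) and Dusp16. They lie below them for Dusp3 and Dusp7, whereas the highest Dusp6 values are those of Eff.

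Among the inducible nuclear phosphatases, Dusp2 (PAC-1, which acts on ERK) had the largest relative increase. Unstimulated cells held 40.0 and 22.6 normalized counts of Dusp2 in Ctrl and 26.3 and 18.3 in Eff. With LPS/IFNγ, the values were 383 and 551 in LPS, and 228.8 and 229.7 in LPSEff. All 4 stimulated samples were thus above all 4 unstimulated ones, and both LPSEff samples were below both LPS samples. Dusp2 rose 14.8-fold in naïve Mϕ (log2 fold change 3.89 ± 0.34 SE, limma adjusted p = 0.000217) and 10.0-fold in efferocytic Mϕ (3.32 ± 0.34, adjusted p = 0.000441). Dusp2 maps to chr2:127177957-127180296 (GRCm39).

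Dusp5, which holds ERK inactive in the nucleus, came next. Ctrl contained 128 and 117 normalized counts and Eff 253 and 130, with the first Eff sample above the other 3. LPS contained 1097 and 1396, and LPSEff 929 and 872, again with stimulated and unstimulated samples fully apart and with LPSEff below LPS. The increase was 10.0-fold in naïve Mϕ (log2 fold change 3.33 ± 0.30 SE, limma adjusted p = 0.000249) and 4.94-fold in efferocytic Mϕ (2.30 ± 0.30, adjusted p = 0.00148). Dusp5 lies at chr19:53517532-53530862, directly downstream of the stretch with the adjoining CArG boxes shown above.

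Dusp1 (MKP-1) varied more between replicates. Its values were 760 and 470 normalized counts in Ctrl and 722 and 514 in Eff. They were 2022 and 1374 in LPS, against 1742 and 915 in LPSEff. The groups compared did not overlap, but replicate 1 exceeded replicate 2 in each of the 4 groups. Dusp1 rose 2.79-fold in naïve Mϕ (log2 fold change 1.48 ± 0.37 SE, limma adjusted p = 0.0232). In efferocytic Mϕ the difference was 2.07-fold and did not pass the threshold (1.05 ± 0.37, 95% interval 0.19 to 1.91, adjusted p = 0.0878). The call in naïve Mϕ is lost when the samples are rescaled to equal totals (log2 fold change 1.08, adjusted p = 0.0783), under quantile normalization (1.19, adjusted p = 0.0720), without Ctrl replicate 2 (1.13, adjusted p = 0.142) and without LPS replicate 1 (1.20, adjusted p = 0.111), whereas in efferocytic Mϕ a call is gained with DESeq2 (1.14, adjusted p = 0.0221) and without LPSEff replicate 2 (1.51, adjusted p = 0.0449).

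Dusp4 (MKP-2) was the only gene of this group with higher means in efferocytic than in naïve Mϕ both with and without LPS/IFNγ. The deposited values were 246 and 253 normalized counts in Ctrl and 387 and 394 in Eff, with replicates close together. They were 797 and 534 in LPS and 868 and 741 in LPSEff, which overlap. Dusp4 rose 2.61-fold in naïve Mϕ (log2 fold change 1.39 ± 0.22 SE, limma adjusted p = 0.00332) and 2.05-fold in efferocytic Mϕ (1.04 ± 0.22, adjusted p = 0.0136). The efferocytic call is lost with equal totals (0.59, adjusted p = 0.105) and without Eff replicate 1 (1.02, adjusted p = 0.0772), Eff replicate 2 (1.05, adjusted p = 0.0672) or LPSEff replicate 1 (0.92, adjusted p = 0.0922).

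Of Dusp8, Dusp10 and Dusp16, only Dusp16 (MKP-7) was called. Its values were 297 and 417 normalized counts in Ctrl and 267 and 318 in Eff, and 1301 and 1414 in LPS against 960.3 and 959.5 in LPSEff. Stimulated samples were all above unstimulated ones, and both LPSEff samples below both LPS samples. Dusp16 rose 3.85-fold in naïve Mϕ (log2 fold change 1.94 ± 0.21 SE, limma adjusted p = 0.000534) and 3.29-fold in efferocytic Mϕ (1.72 ± 0.21, adjusted p = 0.00105).

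Dusp8, per kb of exon the least abundant of the 10 genes, had 22.9 and 10.99 normalized counts in Ctrl and 9.64 and 11.3 in Eff. With LPS/IFNγ it had 59.5 and 41.6 in LPS, against 40.4 and 20.3 in LPSEff. These stem from 11 to 51 recovered reads per sample. The stimulated samples lay above the unstimulated ones within both comparisons, but neither difference passed the threshold in limma (log2 fold change 1.59 ± 0.50 SE, adjusted p = 0.0537, and 1.38 ± 0.50, adjusted p = 0.0956). With a pseudocount of 5, the first of them passed (1.38, adjusted p = 0.0470).

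Dusp10 (MKP-5) was not called in either comparison. It measured 43.8 and 49.7 normalized counts in Ctrl and 66.6 and 51.5 in Eff, compared with 73.7 and 70.1 in LPS and 92.6 and 73.6 in LPSEff. Stimulated samples were higher within both comparisons without overlap. The log2 fold changes of Dusp10 were 0.61 (95% interval -0.01 to 1.24, limma adjusted p = 0.149) and 0.49 (-0.14 to 1.11, adjusted p = 0.264).

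Of the cytoplasmic ERK phosphatases, Dusp7 fell in both comparisons and Dusp6 was called in neither. Dusp7 (MKP-X) contained 524 and 428 normalized counts in Ctrl and 801 and 403 in Eff, with a wide spread in Eff. After LPS/IFNγ, 168 and 75.1 remained in LPS and 200.3 and 146 in LPSEff, so that stimulated samples were below all unstimulated ones. Dusp7 fell to levels 4.18-fold lower in naïve Mϕ (log2 fold change -2.06 ± 0.43 SE, limma adjusted p = 0.0109) and 3.31-fold lower in efferocytic Mϕ (-1.73 ± 0.43, adjusted p = 0.0256). Without Ctrl replicate 1 the first call is lost (-1.92, adjusted p = 0.0716), and so is the second without Eff replicate 1 (-1.23, adjusted p = 0.154), LPSEff replicate 1 (-1.95, adjusted p = 0.0671) or LPSEff replicate 2 (-1.50, adjusted p = 0.123).

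Dusp6 (MKP-3), the other cytoplasmic enzyme, had the widest spread of the 10 genes in LPS relative to its mean. Its values were 564 and 852 normalized counts in Ctrl and 739.8 and 281 in LPS, which overlap, as the LPS samples lay far apart. They were 1980 and 1477 in Eff and 856 and 910 in LPSEff, where every stimulated sample was below every unstimulated one. The log2 fold change of Dusp6 was -0.60 ± 0.42 SE in naïve Mϕ (limma adjusted p = 0.352) and -0.95 ± 0.42 in efferocytic Mϕ (adjusted p = 0.157). In naïve Mϕ, the value hangs on the LPS samples, being -1.30 without LPS replicate 1 (adjusted p = 0.0253) and 0.09 without LPS replicate 2 (adjusted p = 0.861). In efferocytic Mϕ a call is gained when only the groups compared are fitted (-0.95, adjusted p = 0.0257), with equal totals (-1.40, adjusted p = 0.0440) and without LPS replicate 1 (adjusted p = 0.0315) or LPS replicate 2 (adjusted p = 0.0315).

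The atypical phosphatase Dusp3 (VHR), which acts on ERK and JNK, fell in both comparisons and was, per kb of exon, more abundant than Dusp7. Dusp3 held 1678 and 1314 normalized counts in Ctrl and 1678 and 1379 in Eff. LPS contained 526 and 358 and LPSEff 701 and 439, with all stimulated samples below all unstimulated ones. Dusp3 was 3.41-fold lower in stimulated naïve Mϕ (log2 fold change -1.77 ± 0.29 SE, limma adjusted p = 0.00352) and 2.74-fold lower in stimulated efferocytic Mϕ (-1.45 ± 0.29, adjusted p = 0.00972). The second call is lost without Eff replicate 1 (-1.31, adjusted p = 0.0698) and without LPSEff replicate 2 (-1.12, adjusted p = 0.0573).

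Other values moved with LPS/IFNγ as well. The normalized totals were higher, as given above, and rescaling to equal totals shifts the median of all genes to -0.40 in naïve and -0.44 in efferocytic Mϕ. Each of the 10 genes kept the direction of both LPS/IFNγ comparisons under that scaling. The 8 dendritic cell markers summed to 2235 to 3110 normalized counts in Ctrl and 8385 to 16384 in LPS, with 2 of the 5 tested called higher. In Eff they summed to 1418 to 1923 and in LPSEff to 6720 to 6763, with 1 of 5 called higher and Cd209a at 0 in both LPSEff samples. Ccr7 made up most of these sums (1839 and 2128 in Ctrl, 7649 and 14409 in LPS, 1151 and 1296 in Eff, 6243 and 5720 in LPSEff). The others went both ways, with Xcr1 at 36.2 and 52.6 in Ctrl and 119 and 636 in LPS. Itgae had 196 and 522 in Ctrl and 90.5 and 357 in LPS. The 8 neutrophil and progenitor markers summed to 154 to 316 in Ctrl, 691 to 747 in LPS, 150 to 462 in Eff and 414 to 834 in LPSEff, with 2 of 6 tested called higher in naïve and 1 of 6 in efferocytic Mϕ, and none at 0 throughout a group. The 6 mast cell and basophil markers summed to 929 to 998 in Ctrl, 261 to 404 in LPS, 690 to 824 in Eff and 165 to 338 in LPSEff, with 1 of 3 tested called lower in each comparison and Fcer1a and Mcpt8 at 0 in both Eff samples. Kit made up most of these sums (983 and 863 in Ctrl, 237 and 269 in LPS, 677 and 771 in Eff, 145 and 247 in LPSEff). The median log2 fold change of the 3 tested was 0.14 in naïve and 0.65 in efferocytic Mϕ. The part of these cells in the Dusp values was not tested.

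**Figure D2:**
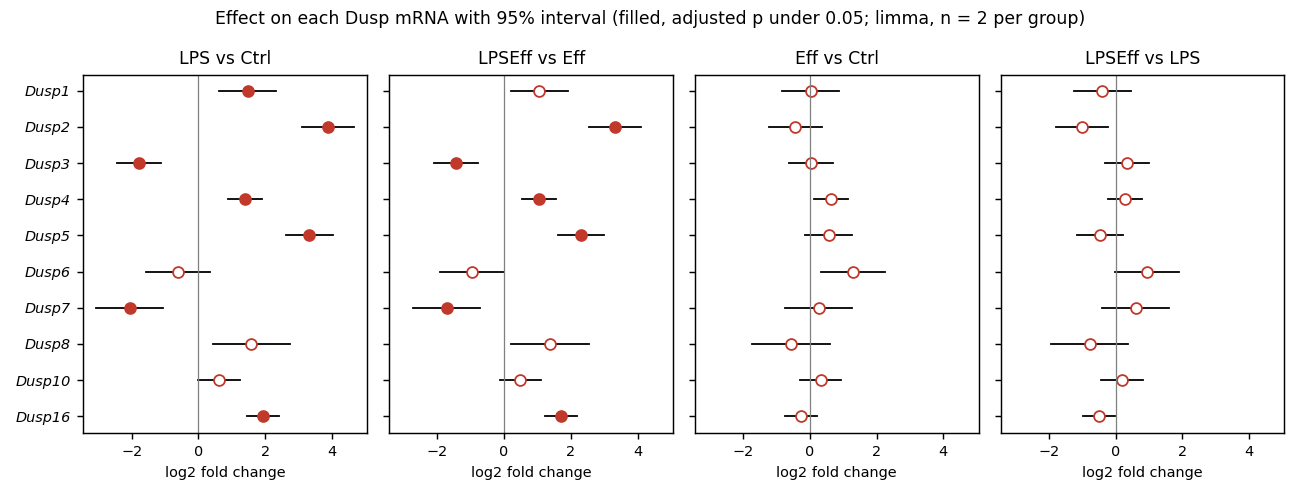
Log2 fold change of each Dusp gene with its 95% interval in 4 comparisons (from left, LPS/IFNγ in naïve Mϕ, LPS/IFNγ in efferocytic Mϕ, efferocytosis without and with LPS/IFNγ), filled where the limma adjusted p was under 0.05 (n = 2 per group). Filled points number 7 in the first panel and 6 in the second, with none in the others.

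Next, efferocytosis itself was examined by comparing Eff with Ctrl. None of the 10 genes was called by limma in this comparison, against 0.251% of all tested genes, and at an unadjusted p under 0.05 stood 2 of them, Dusp6 and Dusp4, against 6.13%. None was called by edgeR or DESeq2 either, which called 14 and 207 of the 16309 tested genes. Dusp6 was the gene with the largest difference, since both Eff samples (1980 and 1477 normalized counts) exceeded all other 6 samples, and the mean was 2.46-fold that of Ctrl (log2 fold change 1.30, 95% interval 0.34 to 2.26, unadjusted p = 0.0141, limma adjusted p = 0.514). Dusp4 was 1.57-fold higher in Eff without overlap (0.65, 95% interval 0.14 to 1.16, unadjusted p = 0.0191, limma adjusted p = 0.586). For Dusp5 the log2 difference was 0.56 (95% interval -0.13 to 1.26), without overlap as well. The other 7 genes lay between -0.56 for Dusp8 and 0.32 for Dusp10, and the median over all 10 was 0.15, beside -0.01 over all tested genes. Ranges did not overlap for 4 of the 10 genes, against 34.1% of all tested genes.

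Among the samples with LPS/IFNγ, LPSEff was compared with LPS to see whether prior efferocytosis altered the stimulated level. Again, limma called none of the 10 genes, against 0.773% of all tested genes. Neither did edgeR or DESeq2, which called 126 and 368 of the 16309 tested genes. In limma, an unadjusted p under 0.05 was reached by 2, Dusp2 and Dusp16, against 10.3%. Dusp2 was 2.00-fold lower in LPSEff (log2 fold change -1.0, 95% interval -1.79 to -0.21, unadjusted p = 0.0188, limma adjusted p = 0.339). Dusp16 was 1.41-fold lower (-0.50, 95% interval -0.98 to -0.02, unadjusted p = 0.0442, limma adjusted p = 0.465). Dusp6 pointed the other way, 1.93-fold higher in LPSEff (0.95, 95% interval -0.01 to 1.91, unadjusted p = 0.0522, limma adjusted p = 0.493). The LPSEff and LPS values did not overlap for 5 of 10 genes, against 36.3% of all tested genes, and the median over the 10 was -0.10, beside -0.00 over all tested genes.

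The 20 fibroblast markers moved with the co-culture. They summed to 272 to 510 normalized counts in Ctrl and 1951 to 4004 in Eff, with 7 of 18 tested markers called higher, and to 1134 to 1160 in LPS and 5375 to 5639 in LPSEff, with 6 of 18 called higher. With LPS/IFNγ, 4 of 18 were called higher in naïve and 1 of 18 in efferocytic Mϕ. None of the 20 markers was at 0 in both samples of a group. The summed markers made up at most 0.0632% of the normalized total of a sample. The part of RNA from the engulfed or attached NIH-3T3 cells in the Dusp6 and Dusp4 values was not tested.

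Whether the response to LPS/IFNγ itself differed between efferocytic and naïve Mϕ was tested as the difference of both log2 fold changes. Limma called no Dusp gene, and none of the 16309 genes (0.00%), with 311 genes (1.91%) at an unadjusted p under 0.05. One of these was Dusp5, whose log2 fold change was smaller by 1.02 in efferocytic Mϕ (-1.02, 95% interval -2.00 to -0.04, unadjusted p = 0.0431, limma adjusted p = 1.00). The size of this difference hangs on the Eff samples, being -0.54 without Eff replicate 1 and -1.50 without Eff replicate 2. In size, the LPS/IFNγ effect was smaller in efferocytic than in naïve Mϕ for 9 of 10 Dusp genes, all but Dusp6, compared with 54.7% of all tested genes and 59.9% of the 4423 genes called in at least 1 of both comparisons. The intervals of the difference include 0 for the other 9 genes and are wide, from -1.85 to 1.43 for Dusp8 and from -0.91 to 0.46 for Dusp16. Leaving out 1 sample could turn the direction of the difference for Dusp1, Dusp3, Dusp6, Dusp7, Dusp8, Dusp10 and Dusp16.

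To set levels of different genes beside each other, normalized counts were divided by the exon length of each gene in kb. In Ctrl, Dusp3 (312 ± 53.5 normalized counts per kb, SD, n = 2), Dusp6 (209 ± 60.2) and Dusp1 (185 ± 61.6) led, and neighbours in this order did not differ beyond their spread, nor did Dusp1 and the next gene, Dusp7 (116 ± 16.5). Dusp4 (86.6 ± 1.74), Dusp5 (49.4 ± 2.90) and Dusp16 (40.4 ± 9.59) followed, of which Dusp5 and Dusp16 did not differ beyond their spread. Dusp2 (14.7 ± 5.80), Dusp10 (7.69 ± 0.691) and Dusp8 (2.07 ± 1.03) came last, each apart from the next. In Eff, Dusp6 stood first with 510 ± 105 per kb, ahead of Dusp3 with 319 ± 44.1, and beyond the spread of both.

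After LPS/IFNγ, the order was another one. In LPS, Dusp1 (511 ± 138 per kb, SD, n = 2) and Dusp5 (502 ± 85.4) led without a difference beyond their spread. Dusp4 (231 ± 64.5) and Dusp2 (220 ± 56.1) came next, again not apart, then Dusp16 (154 ± 8.99), Dusp6 (151 ± 95.6) and Dusp3 (92.2 ± 24.8), of which neighbours were not apart either. LPSEff had the same leaders, Dusp1 with 400 ± 176 and Dusp5 with 363 ± 16.4 per kb, followed by Dusp4 with 279.6 ± 31.1 and Dusp6 with 260 ± 11.3. Dusp7, Dusp10 and Dusp8 took the last 3 places in both stimulated groups, each apart from its neighbours. Dusp3 thus moved from first in Ctrl to seventh in LPS.

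**Figure D3:**
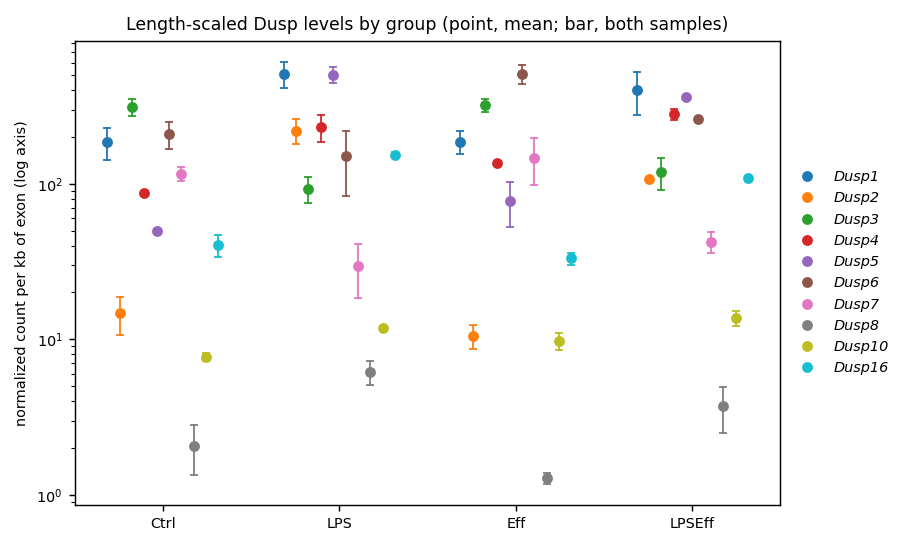
Length-scaled level of the 10 Dusp genes in each group, in normalized counts per kb of exon on a log axis, with points for the mean of 2 samples and bars that span both samples. Dusp3 leads in Ctrl (312 per kb), Dusp6 in Eff (510 per kb), and Dusp1 and Dusp5 in LPS and LPSEff.

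To find the genes with the most similar pattern, the root mean square difference of log2(normalized count + 1) over the 8 samples, each gene centred on its own mean, was taken for the 7 Dusp genes called in at least 1 comparison. The nearest to Dusp1 were Epb41l5 (0.141), Pim1 (0.142), a serine/threonine kinase, and Zfp36 (0.166), which encodes the mRNA decay factor tristetraprolin, where Dusp1 itself spread by 0.733. Nearest to Dusp2 (spread 1.86) were Slfn8 (0.298), Tnf (0.348), the cytokine TNFα, and Misp (0.348). For Dusp5 (spread 1.45) these were Pla1a (0.192), a phospholipase, Slfn1 (0.237) and Abtb2 (0.237). For Dusp4 (spread 0.674) they were Arrdc4 (0.133), Ms4a6d (0.148) and Mark4 (0.166), and for Dusp16 (spread 0.947) Tlk2 (0.118), Xrn1 (0.121), the main cytoplasmic 5′ to 3′ exoribonuclease, and Mtmr14 (0.133). The genes that fell, Dusp3 (spread 0.852) and Dusp7 (spread 1.06), had Lonrf3 in common (0.151 and 0.204), besides Dgkz (0.125), a diacylglycerol kinase, and Tspan5 (0.150) for Dusp3, and Pwwp2b (0.173) and Zfp36l2 (0.196), a relative of tristetraprolin, for Dusp7.

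The other genes of the MAP kinase pathway changed in both directions. Of 133 genes in 9 lists, 131 were found and 116 tested. Of these, 17 rose and 18 fell in LPS vs Ctrl, where 24.0% of all tested genes were called, and 12 rose and 15 fell in LPSEff vs Eff, where 19.7% were called. No gene of the lists was called in Eff vs Ctrl, and 2 were higher in LPSEff than in LPS, against 0.730% of all tested genes.

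Among 17 other dual-specificity phosphatases tested, 2 rose and 3 fell in naïve Mϕ, and 1 rose and 2 fell in efferocytic Mϕ. Dusp14 (MKP-6), a small atypical phosphatase, averaged 6.90 ± 1.69 normalized counts in Ctrl and 96.0 ± 35.1 in LPS (SD, n = 2, log2 fold change 3.58, limma adjusted p = 0.000946), and rose in efferocytic Mϕ as well (1.69, adjusted p = 0.0285). Its value in Ctrl replicate 1, 5.71, stems from only 3 reads. Dusp18 fell in naïve Mϕ (-2.28, adjusted p = 0.00810) and had a log2 fold change of -1.15 in efferocytic Mϕ (adjusted p = 0.114). Ptp4a3, a prenylated phosphatase also called PRL-3, fell in both (-2.16, adjusted p = 0.00165, and -2.46, adjusted p = 0.00102). Among 7 tested MAP kinase phosphatases of other classes, 2 rose and 1 fell in naïve Mϕ, and 1 fell in efferocytic Mϕ. The tyrosine phosphatase Ptpn7 (HePTP), which acts on ERK and p38, fell in both (-1.77, adjusted p = 0.00223, and -2.01, adjusted p = 0.00139), while Ppm1b, a serine/threonine phosphatase, rose in naïve Mϕ (1.07, adjusted p = 0.0109) and did not pass in efferocytic Mϕ (0.64, adjusted p = 0.0851).

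The kinases that the Dusp proteins oppose, and those above them, are read against the same 24.0% and 19.7% of all tested genes. Of 11 tested MAP kinases, 1 fell in naïve Mϕ, Mapk14, which encodes p38α (1162 ± 187 normalized counts in Ctrl, 638 ± 81.3 in LPS, log2 fold change -0.86, limma adjusted p = 0.0199, and -0.68 in efferocytic Mϕ, adjusted p = 0.0553). Another rose in efferocytic Mϕ, Mapk6, which encodes ERK3 (0.61, adjusted p = 0.0448, and 0.27 in naïve Mϕ, adjusted p = 0.325). Of 7 MAP2 kinases, Map2k1, which encodes the ERK activator MEK1, rose in both (1.65, adjusted p = 0.00180, and 1.72, adjusted p = 0.00169). Of 19 MAP3 kinases, 3 rose and 2 fell in naïve Mϕ and 1 rose and 2 fell in efferocytic Mϕ. Map3k8, which encodes TPL-2, the activator of MEK downstream of Toll-like receptors, rose in both (1.71, adjusted p = 0.00730, and 1.73, adjusted p = 0.00796), Map3k14, which encodes the NF-κB-inducing kinase, rose in naïve Mϕ (1.29, adjusted p = 0.0207) and did not pass in efferocytic Mϕ (0.998, adjusted p = 0.0611), and Map3k20, which encodes ZAK, fell in both (-1.13, adjusted p = 0.01003, and -1.54, adjusted p = 0.00304).

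Among 11 scaffolds and adaptors, 2 rose and 1 fell in each comparison. Nfkb1, whose p105 product binds TPL-2, went from 1235 ± 177 normalized counts in Ctrl to 6162 ± 31.0 in LPS (SD, n = 2, log2 fold change 2.32, limma adjusted p = 0.000117) and rose in efferocytic Mϕ as well (2.38, adjusted p = 9.06e-05). Tab2, an adaptor of the kinase TAK1, rose in both (0.92, adjusted p = 0.00898, and 0.88, adjusted p = 0.0125). Of 10 MAPK-activated kinases, 1 rose and 2 fell in each comparison, with Mapkapk2, the p38 substrate MK2, higher (1.46, adjusted p = 0.00799, and 1.5, adjusted p = 0.00824) and Rps6ka1, the ERK substrate RSK1, lower (-1.20, adjusted p = 0.00872, and -1.59, adjusted p = 0.00301).

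ERK feedback inhibitors other than the Dusp genes split, with 2 higher and 2 lower of 12 in naïve Mϕ and 1 higher and 2 lower in efferocytic Mϕ. Spry2, an inhibitor of receptor tyrosine kinase signaling, fell in both (log2 fold change -1.77, limma adjusted p = 0.00280, and -1.22, adjusted p = 0.0165), whereas Spred1 rose in naïve Mϕ (1.56, adjusted p = 0.0185) and did not pass in efferocytic Mϕ (1.17, adjusted p = 0.0623). Lrig1, a transmembrane inhibitor of ErbB receptors, averaged 411 ± 21.2 normalized counts in LPSEff and 58.8 ± 17.3 in LPS (2.81, adjusted p = 0.0150). It also rose from Eff to LPSEff (1.79, adjusted p = 0.00600), with 0.31 from Ctrl to LPS (adjusted p = 0.536). Of 22 immediate early and ERK target genes, 4 rose and 6 fell in naïve Mϕ, and 4 rose and 5 fell in efferocytic Mϕ. Phlda1 rose in both (2.89, adjusted p = 0.00810, and 2.60, adjusted p = 0.0143), as did Ier3 (2.65, adjusted p = 0.0121, and 2.18, adjusted p = 0.0306), and Ccnd1, which encodes cyclin D1, fell in both (-2.29, adjusted p = 0.00301, and -2.28, adjusted p = 0.00359). Emp1, a membrane protein, fell with LPS/IFNγ in both (-2.64, adjusted p = 0.000194, and -1.36, adjusted p = 0.00451) and was higher in LPSEff than in LPS (1.82, adjusted p = 0.0197). The fibroblast markers given above differed between the same groups, and their part in the Lrig1 and Emp1 values was not tested.

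**Figure D4:**
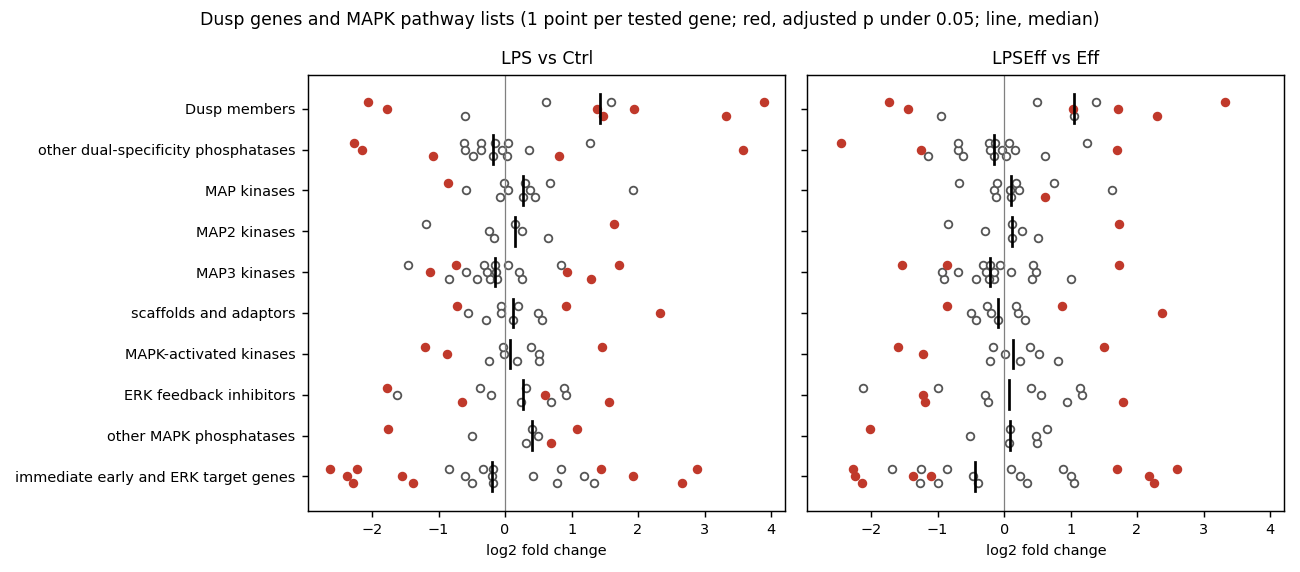
Log2 fold change of every tested gene of the Dusp list and of the 9 pathway lists in LPS vs Ctrl and LPSEff vs Eff, 1 point per gene, red where the limma adjusted p was under 0.05, with a line at the median of each list. The median of the 10 Dusp genes lies at 1.43 and 1.04, to the right of the medians of the other lists, of which none exceeds 0.40.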

How the data were processed

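Total RNA of 8 BMDM samples was depleted of rRNA and sequenced. The authors ran cutadapt on the adapters and bowtie2 against rRNA, then STAR on mm39. They counted with htseq-count at default settings, which use strand. Annotated genes on the opposite strand overlap exons of 8 of the 10 Dusp genes, and none on the same strand does. The authors deposited normalized counts, a signal in which each sample is divided by its own size factor. Dividing each column by its smallest step gave whole reads for 100% of entries (tolerance 0.01 reads). GENCODE vM39 named 54749 of 55359 identifiers.

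The 16309 genes whose values averaged 10 or more were fitted on log2(value + 1) with limma 3.58.1 in R 4.3.3, with trend, as 4 group means over all 8 samples (4 residual degrees of freedom), two-sided, adjusted by Benjamini-Hochberg over all tested genes and called under 0.05. Intervals are at 95%. The code of the fit was checked on simulated data with the same spread for all genes and no replicate effect, which cannot show the error rate in these data. Exact permutation of 2 against 2 samples cannot reach that threshold. Alternatives were other pseudocounts and filters, other scalings, a fit of the groups compared alone, a replicate block, each sample left out, and edgeR 4.0.16 and DESeq2 1.42.0 on the recovered reads. There edgeR called 3991 genes in LPS vs Ctrl, 3509 in LPSEff vs Eff, 126 in LPSEff vs LPS and 14 in Eff vs Ctrl. In the same order, DESeq2 called 3965, 3518, 368 and 207. Named genes were all 10 Dusp genes, per pathway list and comparison the 2 called genes with the largest changes, and the 3 genes nearest to each called Dusp gene. The genes, lists and tests were chosen with earlier results of these data known. Protein sequences and the promoter of Dusp4 were not used here.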

Additional observations from a re-analysis of the deposited data

How the results depend on the processing

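Over 18 alternatives to 50 values (the 10 Dusp genes in 5 comparisons), 885 values could be computed, since Dusp8 was not among genes with a mean of at least 50 and the groups of 1 comparison alone cannot give the difference between LPS/IFNγ effects. Of these, 842 kept their direction and call, 11 gained a call, 14 lost one and 18 turned in direction, the last only where 1 sample was left out. Part of this was fixed in advance. Leaving out a sample of neither group compared, or changing the filter, cannot alter the log2 fold change in limma. Eff vs Ctrl, LPSEff vs LPS and the difference between LPS/IFNγ effects had no call to lose. Without 1 sample, the log2 fold change of Dusp1 ran from -0.32 to 0.37 in Eff vs Ctrl, from -0.86 to 0.064 in LPSEff vs LPS and from -0.89 to 0.036 for the difference between both LPS/IFNγ effects. The ranges were -0.14 to 0.21 and -0.019 to 0.65 for Dusp3 in Eff vs Ctrl and in that difference, -1.30 to 0.094 and -1.05 to 0.34 for Dusp6 in LPS vs Ctrl and in the difference, and -0.23 to 0.76 and -0.24 to 0.91 for Dusp7 in Eff vs Ctrl and in the difference. For the difference alone they were -0.71 to 0.29 for Dusp8, -0.31 to 0.058 for Dusp10 and -0.47 to 0.018 for Dusp16. The cause was not tested.

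The number of Dusp genes called in LPS vs Ctrl was 6 to 8 over the alternatives, and in LPSEff vs Eff it was 3 to 7 when a sample was left out (3 without Eff replicate 1, 4 without LPSEff replicate 1) and 6 to 8 otherwise. No alternative called a Dusp gene in Eff vs Ctrl, LPSEff vs LPS or the difference. Over all 16309 tested genes, calls moved as well, so changes in these counts were not particular to Dusp genes. With all samples kept, they ran from 2819 to 6717 in LPS vs Ctrl (3910 in the main fit). In LPSEff vs Eff they ran from 2959 to 6033 (3213 in the main fit). Leaving out any sample of the groups compared lowered the calls over all genes in both comparisons. Genes of the pathway lists called in LPS vs Ctrl (35) numbered 17 to 30 without 1 sample (17 without Ctrl replicate 2, 22 without Ctrl replicate 1), and those in LPSEff vs Eff (27) 16 to 34 (17 without Eff replicate 1, 16 without Eff replicate 2 or LPSEff replicate 1). With equal totals the latter were 44. In Eff vs Ctrl DESeq2 called 1, and in LPSEff vs LPS (2) 1 was left when only the groups compared were fitted, 0 to 2 without 1 sample (0 without either LPSEff replicate) and 3 with DESeq2. All genes called in LPS vs Ctrl (3910, of which 2015 higher) became 5735 with equal totals, of which 1420 higher.

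The replicate numbers come from the sample titles alone, with 2 in each group, and no source ties equal numbers to a shared animal, batch or day, so the samples were not treated as paired. Differences between replicates correlated across genes at r = 0.404 to 0.595 over the 6 pairs of groups. With a replicate block, 8 Dusp genes were called in LPS vs Ctrl (Dusp8 added, log2 fold change 1.59, limma adjusted p = 0.00874) and 8 in LPSEff vs Eff (Dusp1 added, 1.05, adjusted p = 0.000234, and Dusp8, 1.38, adjusted p = 0.01995), and none in the others. The pathway lists then had 50 called genes in LPS vs Ctrl and 51 in LPSEff vs Eff, 8 in LPSEff vs LPS and 1 in Eff vs Ctrl. Calls over all 16309 tested genes rose with the block as well. They numbered 6717 in LPS vs Ctrl, against 3910 without it, and 6033 in LPSEff vs Eff, against 3213. In LPSEff vs LPS they numbered 1137, and in Eff vs Ctrl 436. Depth limits Dusp8 most, with 11 to 51 reads a sample.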

Other observations

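Summed over the 10 Dusp genes, length-scaled levels were 974 to 1072 normalized counts per kb in Ctrl, 1774 to 2043 in LPS, 1220 to 1638 in Eff and 1511 to 1884 in LPSEff. The leading gene of a sample made up 23.3% to 35.7% of this sum, and it was Dusp3 in both Ctrl and Dusp6 in both Eff samples, while in LPS and in LPSEff it was Dusp1 in replicate 1 and Dusp5 in replicate 2.

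Dusp1, Dusp3 and Dusp7 were higher in replicate 1 than in replicate 2 in each of the 4 groups, which held for 14.7% of all tested genes.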
